A study of Homo sapiens with 10 samples.

Results

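The genes described here are 10 genes of the cyclin D pathway of G1: the D-type cyclins *CCND1*, *CCND2* and *CCND3*, the kinases *CDK4* and *CDK6*, the inhibitors *CDKN1B*, *CDKN2A*, *CDKN2B* and *CDKN2C*, and *RB1*. They were taken by symbol from the deposited tables. All 10 had a row among the 13029 genes of the *ZMAT3* knockout table, and 9 had a row among the 17642 genes of the p53 knockdown table, where *CCND2* was not analysed here. The set was selected on results already known from both comparisons, so its values are given as a description with no test.

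mRNA was sequenced from 10 libraries of HCT116, a human colorectal cancer cell line, grown without any drug. The first experiment compared 3 *ZMAT3*-WT with 3 *ZMAT3*-KO cultures. In the *ZMAT3*-KO cells CRISPR/Cas9 had been directed at the p53 response element within *ZMAT3*. The paper states that the *ZMAT3*-KO cells were a single clone, and it does not give the number of *ZMAT3*-WT clones sequenced. The *ZMAT3*-KO replicates therefore show only how cultures of 1 clone vary, and clone and genotype cannot be told apart. The labels of these libraries also hold the abbreviations EV and unt, which are not explained in the sources used here. The second experiment compared 2 cultures transfected with a control siRNA (siCTRL) with 2 transfected with a pool of 4 siRNAs against p53 (sip53) for 72 hr. The labels name no siRNA in the first experiment and no editing in the second.

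D-type cyclins bind CDK4 or CDK6 early in G1, and the active kinases phosphorylate the retinoblastoma protein RB1, which then releases E2F transcription factors that drive the genes of S phase. Inhibitors of the INK4 family, encoded by the *CDKN2* genes, bind the kinases and keep the cyclins off them. p27, encoded by *CDKN1B*, and p21, encoded by *CDKN1A*, bind cyclin-CDK complexes and restrain CDK2 most strongly. p53 is a transcription factor that halts the cell cycle largely through p21, and *ZMAT3*, which encodes an RNA-binding protein, is another of its target genes.

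*ZMAT3* was lower in the libraries labelled as its knockout. It was 5.00, 5.20 and 5.26 log2 CPM in *ZMAT3*-WT and 2.25, 2.34 and 2.20 log2 CPM in *ZMAT3*-KO cells (CPM scales counts to the library total), a log2 difference of -2.89. In the siRNA libraries *ZMAT3* stood at 12.0 and 13.6 FPKM in the controls against 3.16 and 1.97 after sip53 (FPKM scales fragments to transcript length and library total). Of 10 colorectal epithelial markers, 6 had values in the *ZMAT3* table. Their summed level was 5757 to 6083 CPM in *ZMAT3*-WT and 3160 to 3242 CPM in *ZMAT3*-KO cells. *KRT8*, *KRT18* and *KRT19* were lower in *ZMAT3*-KO cells. The groups overlapped for *EPCAM* (8.51 to 8.56 against 8.54 to 8.58 log2 CPM) and *CDH1* (6.28 to 6.36 against 6.32 to 6.41). *CDX2* differed little (4.51 to 4.59 against 4.43 to 4.51). Among the siRNA values 7 of the 10 epithelial markers were listed, with sums of 3737 to 3972 FPKM (siCTRL) and 3532 to 4170 FPKM (sip53). The intestinal marker *VIL1* lay between 0.13 and 0.22 FPKM. Of 9 leukocyte, endothelial and fibroblast markers, 2 had values in the *ZMAT3* table, with sums of 13.7 to 14.1 CPM (*ZMAT3*-WT) and 13.35 to 13.55 CPM (*ZMAT3*-KO). In the siRNA libraries 4 did, with sums of 27.5 to 34.6 FPKM (siCTRL) and 9.55 to 9.64 FPKM (sip53). *ACTA2* stood at 26.3 and 21.5 FPKM with siCTRL against 1.74 and 1.68 with sip53. *LYZ* was also lower (2.86 and 1.83 against 1.74 and 0.74 FPKM). *COL1A1* was higher with sip53 (5.41 and 4.08 against 5.96 and 7.06 FPKM), as was *VWF* (0.08 and 0.1 against 0.11 and 0.16). The part of these markers in the results was not tested. The *ZMAT3* libraries share 1 distribution of values, so their depth is unknown. For the siRNA libraries the depth of each is also unknown, and the authors' mean normalised counts over the 4 libraries sum to 30841445.

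*CDK6* was the member with the largest difference from its controls in both experiments among the 9 genes measured in both, while its partner *CDK4* differed by less. The upstream sequences of these kinases are shown because the 2 genes encode enzymes of one function and yet differed so unequally. Each run holds the 250 bases before a RefSeq start site (GRCh38.p14), 5′ to 3′ on the gene's own minus strand, at chr12:57752311-57752560 for *CDK4* and at chr7:92836574-92836823 for *CDK6*. Capitals mark the E-box CACGTG in *CDK4*, which reads the same on both strands and is bound by factors such as MYC, and the GC box GGGCGG, on either strand, in *CDK6*.
CDK4: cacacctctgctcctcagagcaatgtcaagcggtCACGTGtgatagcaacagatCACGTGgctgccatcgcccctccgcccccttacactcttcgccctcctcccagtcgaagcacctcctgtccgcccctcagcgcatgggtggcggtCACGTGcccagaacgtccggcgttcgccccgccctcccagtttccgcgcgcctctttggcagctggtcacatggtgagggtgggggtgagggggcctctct
CDK6: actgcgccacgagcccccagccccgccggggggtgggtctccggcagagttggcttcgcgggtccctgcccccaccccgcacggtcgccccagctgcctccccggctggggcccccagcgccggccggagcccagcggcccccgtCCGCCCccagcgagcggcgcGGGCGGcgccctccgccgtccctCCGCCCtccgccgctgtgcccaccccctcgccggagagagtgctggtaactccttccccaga
The *CDK4* window held 3 E-boxes and 3 GC boxes, which did not overlap each other, and the *CDK6* window held 0 E-boxes and 3 GC boxes. *CDK6* has another RefSeq window, at chr7:92833960-92834209, which held 0 of either motif. Among 35116 RefSeq windows of this length, 6.35% held the E-box and 42.6% the GC box on either strand. Of the 10 members, 8 matched the RefSeq table, with 14 windows in all. All windows of *CCND3*, *CDK4*, *CDKN1B* and *RB1* lay inside the spans that GENCODE gives these genes. The sequence before their outermost GENCODE start was therefore not scanned. The only *RB1* window was chr13:48476200-48476449, while its GENCODE span starts at 48303744. The E-box was in 3 of the 14, in windows of *CDK4* and *CDKN2C*, and the GC box in 9 of the 14. The AP-1 motif TGAGTCA was in 0 of the 14 (1476 of the 35116 windows held it). The part of these motifs in the differences was not tested. *CCND1* and *CCND2* had no entry.

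The level of *CDK6* (chromosome 7, 92604921 to 92836573, minus strand, GENCODE release 44 on hg38) was 6.48, 6.58 and 6.68 log2 CPM in the *ZMAT3*-WT libraries and 4.40, 4.47 and 4.33 log2 CPM in the *ZMAT3*-KO libraries. Every *ZMAT3*-KO library lay below every *ZMAT3*-WT library, and the gap was many times the spread within either group. The log2 difference was -2.18 (limma standard error 0.052), which is 4.54-fold lower. In the siRNA libraries *CDK6* was 40.7 and 50.6 FPKM in the siCTRL libraries against 8.19 and 5.56 in the sip53 libraries. Here too both sip53 libraries lay below both controls, with a log2 difference of -2.73 (standard error 0.256); on log2 values with 0.1 FPKM added this is 6.64-fold lower. The authors' mean normalised count behind the siRNA values was 8326. In such bulk libraries, fewer cells with *CDK6* mRNA and less *CDK6* mRNA per cell cannot be told apart.

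*CDK4* (chromosome 12, 57747727 to 57756013, minus strand) differed from its controls in opposite directions in the 2 experiments. In *ZMAT3*-WT cells it was 8.04, 7.99 and 7.95 log2 CPM, and in *ZMAT3*-KO cells 8.29, 8.21 and 8.28 log2 CPM. The groups did not overlap, and the log2 difference was 0.27 (standard error 0.032). With siCTRL *CDK4* stood at 163 and 195 FPKM, and with sip53 at 129 and 104, a log2 difference of -0.62 (standard error 0.213). The siRNA groups did not overlap either, but each spread widely. In GENCODE, 1369 bases of *CDK4* exons also belong to *TSPAN31* on the opposite strand, so without strand in the counting reads could be shared between these genes. The paper names a stranded kit for the *ZMAT3* libraries, but it does not say whether the counting used strand.

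The balance between the kinases therefore differed between groups in both experiments. Per length of merged exons, *CDK6* made up 8.69% ± 0.79 (SD, n = 3) of the summed *CDK4* and *CDK6* level for *ZMAT3*-WT, against 1.71% ± 0.13 (SD, n = 3) for *ZMAT3*-KO. Per length of the longest transcript these shares were 5.68% and 1.09%. In FPKM, the *CDK6* share was 20.3% ± 0.46 (SD, n = 2) with siCTRL, against 5.53% ± 0.64 (SD, n = 2) with sip53. The summed level itself was 88.3 to 92.5 CPM per kilobase in *ZMAT3*-WT and 97.8 to 102.6 in *ZMAT3*-KO cells, so it was not lower where *CDK6* was lower. With sip53 the sum was 110 and 137 FPKM against 204 and 245 FPKM with siCTRL.

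**Figure D1:**
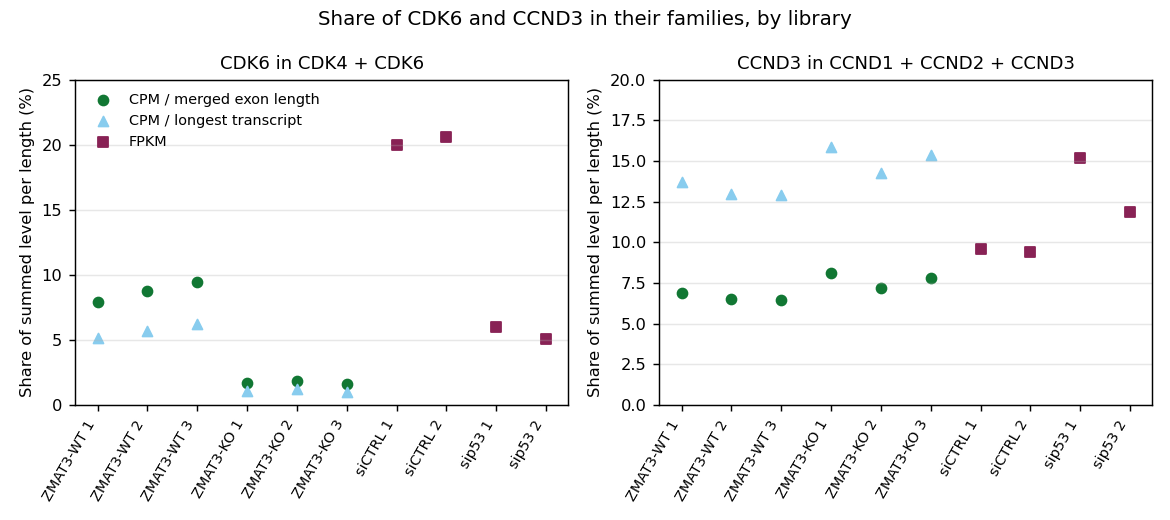
Share of *CDK6* in the summed *CDK4* and *CDK6* level (left) and of *CCND3* in the summed D-type cyclin level (right) for each of the 10 libraries, in percent; circles use CPM per merged exon length, triangles CPM per longest transcript and squares FPKM. The *CDK6* share is lower in all 3 *ZMAT3*-KO and both sip53 libraries than in their controls on every scale, whereas the absolute share depends on the scale.

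Among the D-type cyclins, *CCND1*, a gene induced by growth factor signalling, had the highest level. *CCND1* (chromosome 11, 69641156 to 69654474, plus strand) was 9.10, 9.15 and 9.19 log2 CPM in *ZMAT3*-WT and 8.98, 9.08 and 8.95 log2 CPM in *ZMAT3*-KO cells. The groups did not overlap, although the log2 difference was only -0.14 (standard error 0.035). In the siRNA libraries it reached 288 and 280 FPKM in the controls against 130 and 166 after sip53, a log2 difference of -0.95 (standard error 0.208) or 1.93-fold lower. This was the second lowest ratio among the cyclins and kinases measured there, after that of *CDK6*. The authors' mean normalised count of *CCND1* was 22422. The exons of *CCND1* share 497 bases with *LTO1* on the opposite strand.

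*CCND2*, a cyclin that many cell types express in place of or beside *CCND1*, was near the limit of the table in *ZMAT3*-WT cells. Located at 4269771 to 4305353 of chromosome 12 (plus strand), it was -6.62, -4.79 and -6.62 log2 CPM in *ZMAT3*-WT and 1.31, 1.34 and 1.35 log2 CPM in *ZMAT3*-KO cells. The value -6.62 is the lowest in the table and was shared by *ZMAT3*-WT replicates 1 and 3. All 3 control libraries lay under -3.81 log2 CPM, the level of 3 reads per library if the lowest value stands for 0 reads plus an offset of 0.5. Set against that assumed floor, the *ZMAT3*-KO level of *CCND2* was 35.5-fold higher, and it reached 2.49 to 2.55 CPM. Since the libraries share 1 distribution and their depth is unknown, read counts cannot be recovered, and this ratio is not a strict bound. The exons of *CCND2* share 999 bases with an unnamed protein-coding gene on the same strand, ENSG00000285901, so the assignment of its reads is uncertain.

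*CCND3*, at 41934934 to 42050357 of chromosome 6 (minus strand), differed little. It was 5.62, 5.58 and 5.61 log2 CPM in *ZMAT3*-WT and 5.75, 5.67 and 5.67 log2 CPM in *ZMAT3*-KO cells, a log2 difference of 0.10 (standard error 0.036) with no overlap. With siCTRL it was 30.6 and 28.9 FPKM and with sip53 23.4 and 22.4 FPKM, a log2 difference of -0.38 (standard error 0.170), again with no overlap. All D-type cyclins measured in the siRNA libraries were thus at lower levels with sip53, while in *ZMAT3*-KO cells 1 was lower and 2 were higher.

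*CCND1* made up most of the D-type cyclin mRNA in every group. Per merged exon length *CCND1* was 93.4% ± 0.24 (SD, n = 3) of the summed level for *ZMAT3*-WT, against 92.0% ± 0.45 (SD, n = 3) for *ZMAT3*-KO. *CCND2* was at most 0.282% of the sum in a *ZMAT3*-KO library, so its large ratio concerns a small part of the cyclin D mRNA. In FPKM *CCND1* was 90.4% and 90.6% of the *CCND1* and *CCND3* sum with siCTRL and 84.8% and 88.1% with sip53. Summed, the cyclins came to 309 to 319 FPKM in the siCTRL libraries and to 154 to 188 after sip53.

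**Figure D2:**
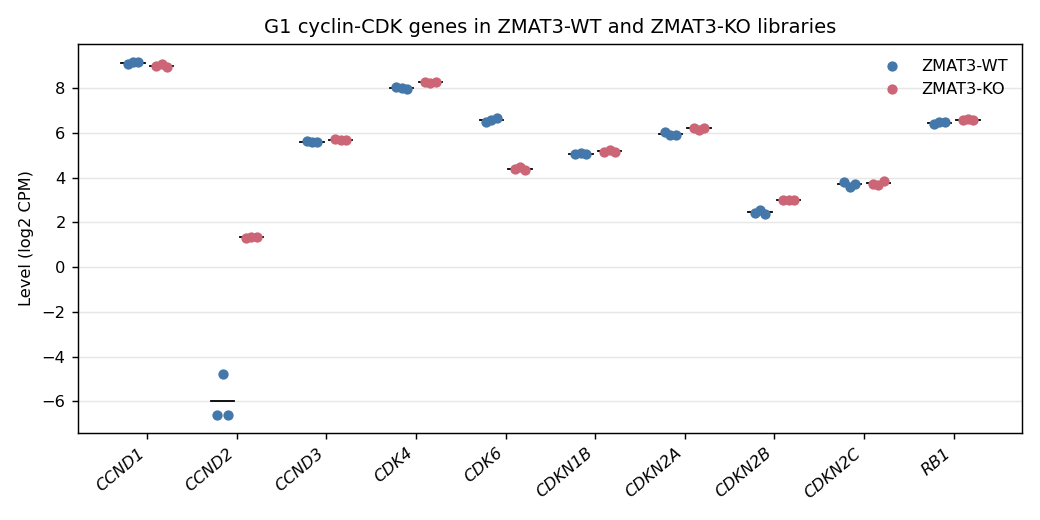
Level of the 10 genes in log2 CPM in the 3 *ZMAT3*-WT (blue) and 3 *ZMAT3*-KO (red) libraries; points are libraries and bars are group means. *CDK6* is lower in all *ZMAT3*-KO libraries, *CCND2* lies under 0 in all *ZMAT3*-WT libraries, and the groups of the other genes lie close together.

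Of the INK4 inhibitors, which block CDK4 and CDK6, *CDKN2B* was the only one of the 3 in the set in which the 2 experiments both separated the groups, and in opposite directions. *CDKN2B*, which encodes p15, lies at 22002903 to 22009305 of chromosome 9 (minus strand). It was 2.42, 2.55 and 2.39 log2 CPM in *ZMAT3*-WT and 3.00, 2.98 and 2.98 log2 CPM in *ZMAT3*-KO cells, a log2 difference of 0.53 (standard error 0.070) or 1.45-fold higher. With siCTRL it was 6.0 and 5.94 FPKM and with sip53 4.10 and 4.06 FPKM, a log2 difference of -0.54 (standard error 0.187) with the closest replicates of all 9 genes.

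*CDKN2A*, next to it at 21967752 to 21995301 of chromosome 9 (minus strand), encodes p16 and, from a separate first exon, ARF, a protein that stabilises p53. A value per gene does not separate these. In *ZMAT3*-WT cells it was 6.04, 5.90 and 5.91 log2 CPM and in *ZMAT3*-KO cells 6.24, 6.15 and 6.23 log2 CPM, a log2 difference of 0.26 (standard error 0.043) with no overlap. In the siRNA libraries it was 39.2 and 19.0 FPKM in the controls against 17.4 and 42.7 after sip53, so both groups spanned the same range. Of the members it had the widest spread between siRNA replicates, and no direction can be given. Its exons share 593 bases with the antisense RNA *CDKN2B-AS1*.

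*CDKN2C*, which encodes p18, lies at 50960745 to 50974634 of chromosome 1 (plus strand). It was 3.81, 3.58 and 3.72 log2 CPM in *ZMAT3*-WT and 3.74, 3.68 and 3.84 log2 CPM in *ZMAT3*-KO cells, groups that overlapped. With siCTRL it was 3.95 and 3.56 FPKM and with sip53 4.90 and 8.47 FPKM. Both sip53 values lay above both controls, but sip53 replicate 2 stood far above replicate 1, and the log2 difference of 0.77 had a standard error of 0.305. Without sip53 replicate 2 it was 0.38. The exons of *CDKN2C* share 617 bases with an unnamed non-coding RNA on the opposite strand, ENSG00000290102.

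GC content moved with the difference between replicates in the siRNA libraries. Between sip53 replicates 2 and 1 the median log2 ratio was -0.18 in the GC quartile of lowest content and 0.20 in the quartile of highest content, and between siCTRL replicates 1 and 2 it was -0.022 and 0.046. *CDKN2A* (58.3% GC) and *CDKN2C* (58.1% GC) were in the highest quartile, with log2 ratios of 1.29 and 0.78 between the sip53 replicates. *RB1* (37.1% GC) and *CDK6* (39.7% GC) were in the lowest quartile, with -0.81 and -0.55. Not all members followed their quartile: *CDK4* (52.0% GC) and *CCND3* (56.2% GC) had -0.31 and -0.064 in the third, where the median was 0.064, and *CCND1* (50.3% GC) had 0.35 there. The part of GC content in these results was not tested.

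*CDKN1B*, which encodes p27, was higher than its controls in both experiments, by small amounts. Located at 12685498 to 12722369 of chromosome 12 (plus strand), it was 5.04, 5.11 and 5.06 log2 CPM in *ZMAT3*-WT and 5.17, 5.23 and 5.15 log2 CPM in *ZMAT3*-KO cells (log2 difference 0.12, standard error 0.040). With siCTRL it was 14.6 and 15.6 FPKM and with sip53 21.0 and 19.2 FPKM (log2 difference 0.41, standard error 0.174). The groups did not overlap in either experiment.

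*RB1*, the substrate that the kinases inactivate, had opposite signs in the 2 experiments. Located at 48303744 to 48599436 of chromosome 13 (plus strand), it was 6.39, 6.49 and 6.48 log2 CPM in *ZMAT3*-WT and 6.59, 6.62 and 6.57 log2 CPM in *ZMAT3*-KO cells (log2 difference 0.14, standard error 0.034). With siCTRL it was 17.8 and 19.5 FPKM and with sip53 12.6 and 7.13 FPKM, a log2 difference of -0.97 (standard error 0.302) that was -0.56 without sip53 replicate 2. The groups did not overlap in either experiment, but the sip53 replicates differed widely from each other.

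**Figure D3:**
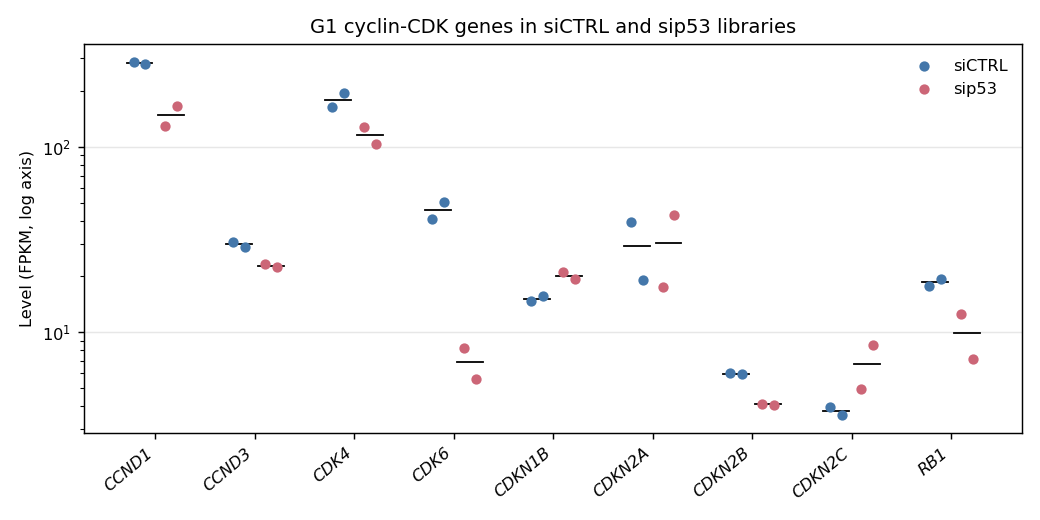
Level of the 9 genes measured, in FPKM on a log axis, in the 2 siCTRL (blue) and 2 sip53 (red) libraries; points are libraries and bars are group means. *CDK6* is lowest with sip53 relative to its controls, and the *CDKN2A* libraries of both groups span the same range.

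Ordered by mean FPKM with siCTRL, *CCND1* was highest (284), followed by *CDK4* (179), *CDK6* (45.6), *CCND3* (29.8), *CDKN2A* (29.1), *RB1* (18.6), *CDKN1B* (15.1), *CDKN2B* (5.97) and *CDKN2C* (3.76). *CCND3* and *CDKN2A* could not be told apart, since the *CDKN2A* replicates lay on either side of it, and the lower of them reached the *RB1* range. With sip53 *CDK6* (6.88 FPKM) stood between *RB1* (9.85) and *CDKN2C* (6.69), and it could not be told apart from either. *CDKN1A*, a p53 target outside the set, had 525 and 481 FPKM in the controls against 34.2 and 37.7 after sip53 (limma adjusted p = 0.00869), above *CDKN1B* in each library.

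**Figure D4:**
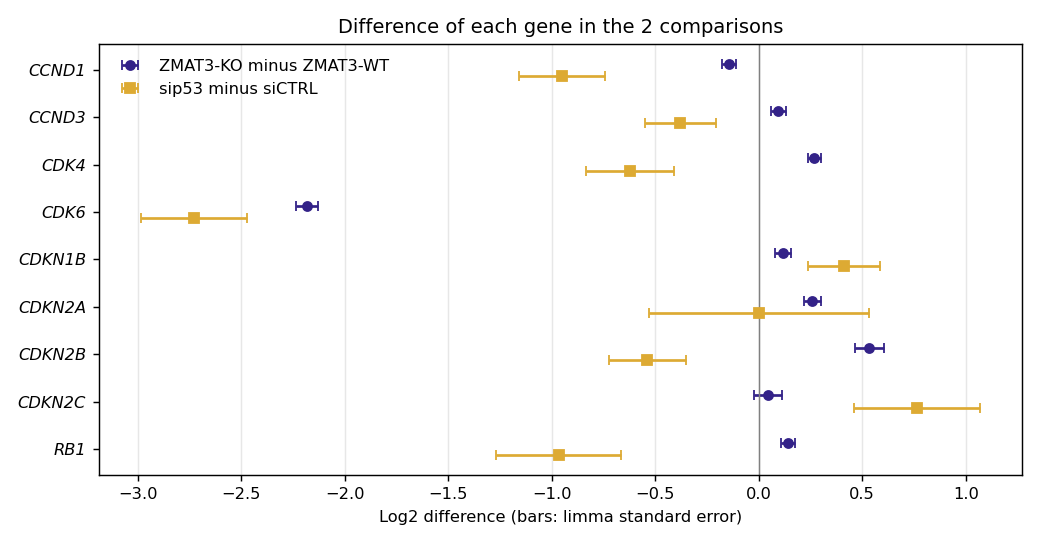
Log2 difference of the 9 genes measured in both experiments, *ZMAT3*-KO minus *ZMAT3*-WT (circles) and sip53 minus siCTRL (squares), with limma standard errors as bars. *CDK6* lies far to the left in both, at -2.18 and -2.73, and *CDK4*, *CCND3*, *CDKN2B* and *RB1* lie on opposite sides of 0.

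Counted over the set, 1 member was higher (*CCND2*) and 1 lower (*CDK6*) in *ZMAT3*-KO cells at both thresholds (an adjusted p of 0.05 and 1.5-fold), which 4.6% and 4.37% of all genes passed. By the adjusted p alone 7 members were higher and 2 lower, where 28.7% and 30.1% of all genes were. Of the 10 members 8 differed by less than 1.5-fold, and in 9 the groups did not overlap, as in 64.2% of all genes. The median log2 difference was 0.13 over the members and -0.01 over all genes. With sip53 the unadjusted p of 0.05 was passed by 0 members that were higher and 5 that were lower (*CCND1*, *CDK4*, *CDK6*, *CDKN2B* and *RB1*), beside 5.86% and 9.28% of all genes. At the adjusted threshold it was 1 member, *CDK6*, against 0.273% of all genes. Without siCTRL replicate 2 or without sip53 replicate 2, 2 members passed the unadjusted threshold as lower, and without siCTRL replicate 1 it was 3. In 8 of the 9 members the siRNA groups did not overlap, as in 46.4% of all genes, and the median was -0.54 against -0.04 over all genes. Since these contrasts chose the members, nothing is read from these shares.

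Genes whose values most resembled those of *CDK6* over the 10 libraries included *ZMAT3*, the nearest of 11346 genes compared, at a Euclidean distance of 1.37 on log2 values centred on each control group, and *TNFRSF10C* (1.60). Their log2 differences in *ZMAT3*-KO cells were -2.89 and -1.49, and with sip53 -2.31 and -2.07. *ZMAT3* was itself the edited gene of the first experiment. Such distances rest largely on the group differences of the contrasts that chose the members, so nothing is read from them. For *CCND2*, over the 6 *ZMAT3* libraries, the nearest of the 13001 genes compared were *UTS2B* (2.37), *CAPN6* (2.67) and *DNAH2* (3.72). Genes with a low mean over these libraries were left out of the comparison, a filter that *CCND2* itself did not pass. Genes closer to *CCND2* may therefore have been left out. The *CCND2* distances also rest in part on control values near the floor of the table.

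Beyond the set, 83 companion genes of the pathway were listed in 8 groups, of which 82 were tested in each experiment with limma over all genes. These lists were chosen with earlier results of these data known, so the counts, medians and p-values of the companion genes are a description only. In *ZMAT3*-KO cells 1 was called higher and 3 lower (background 4.6% and 4.37%). *JUN*, an AP-1 factor, rose (log2 difference 0.62, adjusted p = 1.83e-07), and *FOS*, its partner in AP-1, fell (log2 difference -1.40, adjusted p = 2.67e-10). *CBX7*, a Polycomb protein that represses *CDKN2A*, fell (log2 difference -0.75, adjusted p = 7.03e-06), as did *USP2*, a deubiquitinase of cyclin D1 (log2 difference -0.62, adjusted p = 1.22e-05). Among 16 E2F targets of G1/S and 10 mitotic markers, 0 were called at this threshold. At an adjusted p of 0.05 alone 1 E2F target was higher and 7 lower, and 7 mitotic markers were lower, where 28.7% of all genes were higher and 30.1% lower. The median of the mitotic markers was -0.18 over the 10. *JUN* missed 1.5-fold without *ZMAT3*-WT replicate 2 (log2 difference 0.58), and *USP2* without *ZMAT3*-WT replicate 1 (-0.58) or *ZMAT3*-KO replicate 3 (-0.57).

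With sip53, 15 companion genes were called higher and 8 lower by the unadjusted limma p (background 5.86% and 9.28%), and 1 of them, *CDKN1A*, passed an adjusted p of 0.05. Of the 10 mitotic markers 9 were called higher, with a median log2 difference of 0.89 over the 10. They ran from *AURKA*, a mitotic kinase (0.67, limma adjusted p = 0.190), to *MKI67*, the proliferation marker (1.07, limma adjusted p = 0.170), and *PLK1* was not called (0.43). *MKI67* was 29.2 and 23.9 FPKM in the controls against 46.6 and 66.2 after sip53, groups that did not overlap. At an adjusted p of 0.05, 0 of the 10 passed, while 6 to 9 passed the unadjusted threshold when 1 library at a time was omitted. Among the 16 E2F targets 1 was called, *RRM2*, a subunit of ribonucleotide reductase (log2 difference -0.76, limma adjusted p = 0.206). *CCNA2*, the cyclin of S phase and G2, was called higher (0.85, limma adjusted p = 0.148), and *CCNE2*, a cyclin E, lower (-0.62, limma adjusted p = 0.252).

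The inhibitors nearest to the set moved in several ways. *CDKN2D*, the remaining INK4 gene, also separated the groups in both experiments and in opposite directions. It had a log2 difference of -0.48 in *ZMAT3*-KO cells (limma adjusted p = 0.000161), under the 1.5-fold threshold, and of 0.80 with sip53 (limma adjusted p = 0.171). *CDKN1A* had -0.53 in *ZMAT3*-KO cells (limma adjusted p = 2.02e-08), also under that threshold, and -3.80 with sip53. *CDKN1C*, which encodes p57, had 1.29 with sip53 (limma adjusted p = 0.0961). Of the RB and E2F families *E2F5* (-0.77) and *RBL2* (-0.50) were called lower with sip53 and 0 of 14 were called in *ZMAT3*-KO cells at both thresholds, although 1 was higher and 7 were lower by limma's adjusted p alone (background 28.7% and 30.1%). With 1 control or sip53 library left out, *E2F5*, *RBL2*, *CKS1B*, *AMBRA1*, *STAT3*, *CCNE2*, *RRM2* and *AURKA* each lost their call at least once. Of the turnover list *CKS1B*, which helps the ligase of p27, was called higher (0.79) and *AMBRA1*, the receptor that targets D-type cyclins for degradation, lower (-0.53), and of the upstream factors *FOS* was called higher (0.96) and *STAT3* lower (-0.48). Whether any of these differences differed between the experiments was not tested.

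**Figure D5:**
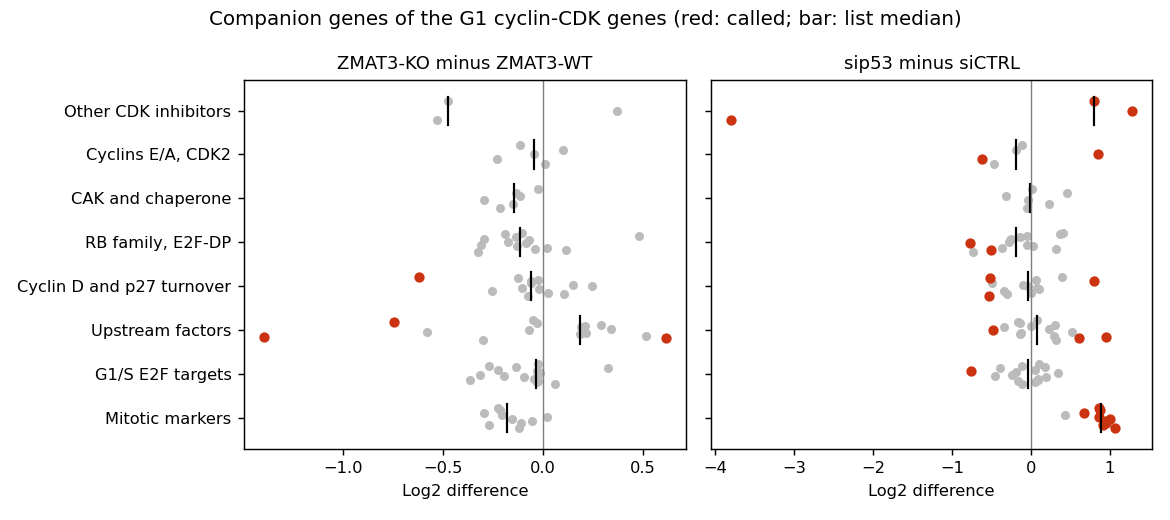
Log2 differences of the companion genes in 8 lists, *ZMAT3*-KO minus *ZMAT3*-WT (left) and sip53 minus siCTRL (right); each point is a gene, red points were called (left, adjusted p of 0.05 and 1.5-fold; right, unadjusted p of 0.05), and black bars are list medians. The mitotic markers lie to the right of 0 with sip53, with a median of 0.89, and close to 0 in *ZMAT3*-KO cells, with a median of -0.18. The lists were chosen with earlier results of these data known.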

How the data were processed

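mRNA captured on oligo(dT) beads was sequenced from 10 HCT116 libraries, grouped by their labels. For the *ZMAT3* libraries the authors trimmed reads with Cutadapt, aligned them with STAR and counted with RSEM, and deposited log2 CPM values. The 6 libraries share 1 distribution, as after quantile normalisation, and depth is not carried. For the siRNA libraries the authors deposited values without a unit, read here as FPKM from the values; the study's methods do not describe them, and the submitters' processing notes name CASAVA 1.8.2, TopHat2 2.0.8 and FastQC 0.11.2 without a role. The authors' mean signal per gene was used for depth only. The deposited ratios (fold changes), log2 fold changes, test scores and p-values are the authors' own comparisons and were not used.

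Each table was tested with limma 3.58.1 in R 4.3.3 (variance trend, two-sided, Benjamini-Hochberg adjustment over all genes), on log2 CPM, or on log2(FPKM + 0.1) where the mean reached 0.5 FPKM (14274 genes); this scale understates changes of low genes. Exact permutation tests cannot go below p = 0.1 (3 against 3) or 0.333 (2 against 2). Calls needed an adjusted p of 0.05 and 1.5-fold, or with sip53 an unadjusted p of 0.05. The fit was tested on simulated data. Alternatives were another pseudocount, other filters, centring on the median gene, no variance trend, replicate blocks, other thresholds and leaving out each library. P-values measure the spread between these cultures only.

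Members and lists were chosen with earlier results of these data known. Named companions are the called genes with the highest and lowest log2 difference of each list, plus *CDKN1A* and *CDKN2D*; *CBX7* and *PLK1* were named after their values were seen. Some genes that the naming rule gives are not reported here. The floor used for *CCND2* and the crossed pairing were also added then. Gene positions come from GENCODE release 44 and promoter windows from RefSeq (GRCh38.p14). GC content was available for 96.7% of the genes tested. Tables were handled with pandas 2.3.3.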

Additional observations from a re-analysis of the deposited data

How the results depend on the processing

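Across alternatives no member's called difference changed sign. *CDK6* stayed between -2.23 and -2.13 in *ZMAT3*-KO cells and between -3.01 and -2.46 with sip53, the fitted difference of *CCND2* went from 7.35 to 1.79 with a pseudocount of 1 CPM, and the uncalled *CDKN2A* ran from -0.64 to 0.64 with sip53.

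In the *ZMAT3* experiment 397 genes were higher with that pseudocount (main 599 higher, 569 lower), and 0 members were higher with a mean of at least 0 log2 CPM, which removed *CCND2*. A 2-fold threshold gave 200 genes higher and 196 lower, with 0 and 1 companion genes. An adjusted p alone gave 3734 and 3925 genes, 15 and 37 companion genes, and 7 and 2 members. Leaving out each library gave 0 to 1 companion genes higher, 0 without *ZMAT3*-WT replicate 2, where *JUN* (0.58) missed 1.5-fold. *USP2* (-0.62) missed it without *ZMAT3*-WT replicate 1 (-0.58) or *ZMAT3*-KO replicate 3 (-0.57).

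With sip53 (main 836 higher, 1325 lower) centring each library on its median gene removed a shift of -0.076 (log2) and gave 1120 and 1048 genes, 4 companion genes lower and 2 members higher. A mean of at least 5 FPKM gave 555 genes higher, and no filter gave 1 member higher. An adjusted p gave 5 and 34 genes, 0 and 1 companion genes, 1 member lower and 0 mitotic genes. With 1.5-fold also required, 4 companion genes were lower. Leaving out each library gave 482 to 720 genes higher, 635 to 1171 lower, 11 to 14 companion genes higher, 1 to 6 lower, 0 to 1 members higher, 2 to 4 lower and 6 to 9 mitotic genes higher. Members lower were 3 without siCTRL replicate 1, 2 without siCTRL replicate 2 and 2 without sip53 replicate 2, and companion genes lower were 1, 3 and 3. The causes were not tested.

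Replicate numbers do not mark a known pairing. Same-numbered *ZMAT3* libraries did not deviate together (correlations of -0.039, -0.022 and -0.093), and the block changed no count there by over 1.5 times. Same-numbered siRNA libraries deviated in opposite directions (-0.62). The replicate block gave 434 genes higher and 650 lower, 2 companion genes lower and 3 members lower. The crossed pairing, chosen after seeing the data, gave 2410 and 3128 genes, 24 and 20 companion genes, and 2 members higher.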
